A study of Rattus norvegicus with 10 samples.

Results

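Lymphocyte marker genes were followed in the renal cortex of PCK rats, as 9 genes chosen by name from the 32545 genes of the deposited table. They are *Ptprc*, the T cell genes *Cd3d*, *Cd3e*, *Cd3g*, *Lck*, *Cd4* and *Cd8a*, and the B cell genes *Ms4a1* and *Cd79b*. Each symbol matched 1 row, and all 9 were among the 17631 genes whose mean reached 0.1 FPKM and that entered the test. FPKM counts sequenced fragments per length of a gene's transcript and per depth of the library, so the levels of different genes can be set side by side. The rats were 5 males and 5 females of the strain PCK/CrljCrl-Pkhd1pck/Crl, in which the autosomal recessive form of polycystic kidney disease arises spontaneously. The *Pkhd1* mutation was carried by both groups, and no rat without the mutation was analysed here. Ages were 12 to 14 weeks in the series text and 10 to 12 weeks in the study's methods, which also describe littermates from 2 litters and kidneys flushed with phosphate-buffered saline before the cortex was frozen. The comparison asked whether the sexes differ in this model, with 1 library per rat and no batch named in the labels.

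T and B lymphocytes patrol tissues from the blood and also settle in inflamed organs, where they can gather around vessels and tubules. *Ptprc* encodes CD45, the phosphatase on the surface of nearly all leukocytes. The CD3 chains γ, δ and ε (*Cd3g*, *Cd3d*, *Cd3e*) carry the signal of the T cell receptor, and *Lck* encodes the kinase that phosphorylates them. CD4 and CD8 are the co-receptors that bring LCK to the receptor, and in the rat CD4 is also found on monocytes and macrophages. CD20 (*Ms4a1*) lies in the membrane of mature B cells, and CD79b is a signalling chain of the B cell receptor. In RNA from whole cortex, fewer cells of a type and less RNA per cell cannot be told apart.

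The genes lie on 6 chromosomes of Rnor_6.0, the build of the deposited table. *Cd3g* (8, 49274960 to 49280901), *Cd3d* (8, 49282460 to 49287110) and *Cd3e* (8, 49297608 to 49308806) are neighbours. *Cd3g* and *Cd3d* are transcribed away from each other, with 1558 bases between them, and 10497 bases separate *Cd3d* from *Cd3e*. *Ptprc* lies on chromosome 13 (55061562 to 55173692), *Lck* on 5 (147750973 to 147761983), *Ms4a1* on 1 (227429596 to 227441442) and *Cd79b* on 10 (94497448 to 94500591). *Cd4* (157383052 to 157408176) and *Cd8a* (99239115 to 99243351) are both on chromosome 4, far apart. Since their levels moved together across the rats, the 250 bases before the start of the CD3 genes, *Lck* and *Ptprc* are printed here from RefSeq on GRCr8, 5′ to 3′ on the gene's strand. Capitals mark GGAAGT, the core of sites for ETS family factors, on either strand, where it reads as ACTTCC on the other. The windows are chr8:54211771-54212020 for *Cd3e*, chr8:54185269-54185518 for *Cd3d*, chr8:54183919-54184168 for *Cd3g*, chr5:147183651-147183900 for the downstream start of *Lck* and chr13:52259747-52259996 for *Ptprc*.
Cd3e: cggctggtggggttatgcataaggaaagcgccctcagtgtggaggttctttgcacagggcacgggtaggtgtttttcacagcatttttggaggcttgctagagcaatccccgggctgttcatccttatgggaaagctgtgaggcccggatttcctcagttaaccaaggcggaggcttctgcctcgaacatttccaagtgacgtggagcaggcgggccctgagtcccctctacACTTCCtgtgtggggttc
Cd3d: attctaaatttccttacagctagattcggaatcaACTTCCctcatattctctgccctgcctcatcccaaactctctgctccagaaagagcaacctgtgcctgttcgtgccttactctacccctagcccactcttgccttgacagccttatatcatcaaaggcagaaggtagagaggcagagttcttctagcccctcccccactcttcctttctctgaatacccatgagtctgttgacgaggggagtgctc
Cd3g: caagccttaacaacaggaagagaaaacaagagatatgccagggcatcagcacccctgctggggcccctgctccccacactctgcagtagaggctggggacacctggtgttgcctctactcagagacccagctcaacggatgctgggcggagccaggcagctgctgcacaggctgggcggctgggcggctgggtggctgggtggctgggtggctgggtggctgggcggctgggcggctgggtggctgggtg
Lck: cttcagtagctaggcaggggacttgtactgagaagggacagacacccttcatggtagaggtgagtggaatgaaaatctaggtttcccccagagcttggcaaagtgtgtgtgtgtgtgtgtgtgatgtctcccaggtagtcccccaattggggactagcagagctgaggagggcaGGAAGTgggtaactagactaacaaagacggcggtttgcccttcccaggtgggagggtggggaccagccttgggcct
Ptprc: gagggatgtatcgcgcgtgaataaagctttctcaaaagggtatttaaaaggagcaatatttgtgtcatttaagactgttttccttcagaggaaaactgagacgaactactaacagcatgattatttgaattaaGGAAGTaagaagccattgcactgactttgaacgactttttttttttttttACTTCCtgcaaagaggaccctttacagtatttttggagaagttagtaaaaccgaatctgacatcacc
RefSeq windows were matched for 6 of the 9 genes, which gave 7 windows because *Lck* has a further upstream start. *Cd4*, *Ms4a1* and *Cd79b* had no entry. GGAAGT was found in 5 of the 7 windows, against 19.2% of all 33469 rat windows of the same length, and it lay 18 to 13 bases before the start in *Cd3e*. The windows of *Cd3g* and *Cd8a* held none. TGTGGT, the core of RUNX sites, was found in 1 of the 7, the upstream window of *Lck*, against 14.5% of all windows, and TATAAA in 0 of the 7, against 12.9%. Such matches describe letters and are not evidence of a bound factor.

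Every member had at least 1 read in all 10 libraries, and *Ms4a1* in female 4 was the only value under the 3 reads taken here as the limit of detection. The tissue itself carried the transcripts of renal cortex, with *Slc34a1*, the phosphate transporter of proximal tubules, at 824 to 1658 FPKM and *Umod*, the uromodulin of thick limbs, at 877 to 1503 FPKM. Reads on genes numbered 13912569 to 20285911 in males and 14963924 to 19556707 in females, and mitochondrial genes took 15.1% to 17.0% of them in males and 14.3% to 26.8% in females, the highest share in female 2. The depth behind the members differed widely. *Ptprc* had 357 to 1019 reads per rat, *Cd4* 389 to 970, *Lck* 80 to 239 and *Cd3e* 24 to 102, while *Cd3d* had 7 to 46 and *Ms4a1* 1 to 73. No molecular identifiers were read, so the same molecule can be counted repeatedly, and the intervals and limits given here describe counting error alone.

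*Cd4* had the highest mean level, 24.8 FPKM over the 10 rats, followed by *Ptprc* at 9.49 FPKM. *Lck* (4.91 FPKM) and *Cd3g* (4.83 FPKM) came next, and their levels could not be told apart (exact sign-flip permutation test, adjusted p = 0.437). Below them stood *Cd79b* at 3.45, *Cd8a* at 3.21, *Cd3e* at 2.80, *Cd3d* at 2.07 and *Ms4a1* at 1.48 FPKM. Of the 8 pairs of neighbours in this order, 4 differed within rats beyond their spread. These were *Cd4* above *Ptprc*, *Ptprc* above *Lck* and *Cd3e* above *Cd3d*, each in 10 of 10 rats (exact sign-flip permutation test, adjusted p = 0.00521), and *Cd3g* above *Cd79b* in 8 of 10 (adjusted p = 0.0234 by the same exact test). On linear FPKM 3 pairs differed, as *Cd3g* above *Cd79b* had an adjusted p of 0.0742 (exact test). No order was shown for *Cd79b* and *Cd8a* (adjusted p = 0.564), for *Cd8a* and *Cd3e* (adjusted p = 0.185) or for *Cd3d* and *Ms4a1* (adjusted p = 0.075), all by the exact test. *Cd79b* was above *Cd8a* in 4 of 10 rats, although its mean FPKM was the higher of the pair.

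None of the 9 lymphocyte markers differed between the sexes in limma, and the spread between rats was wide in both groups. With the study's thresholds (a log2 change of 1 or more either way, with the adjusted p at or below 0.05), 0 of 9 passed, against 1.32% of all genes tested. By the adjusted p alone 0 of 9 passed, against 2.4% of all genes and 1.14% in the direction of lower levels in females, with the lowest at 0.213 for *Cd4* (limma, Benjamini-Hochberg). At an unadjusted limma p under 0.05 there was 1 of 9, lower in females, against 15.7% of all genes in either direction and 8.07% in that direction, and limma-voom on the reads recovered from the table gave 3 of 9 unadjusted, against 16.2% of all genes, and 0 of 9 adjusted, against 2.87%. The exact permutation test of mean FPKM, which cannot go below 0.00794 with 5 against 5, gave 1 of 9 at a p of at most 0.05, against 14.8%. In all 9 the ranges of the sexes overlapped, where 5.1% of all genes had ranges that did not. All 9 had a lower mean in females, against 51.2% of all genes, but the markers moved together across rats and are not independent of each other. The median of their log2 fold changes, females over males on the log2(FPKM + 0.1) scale, was −0.48, against −0.01 over all genes tested. Without female 4 that median was −0.23, with *Ptprc* at −0.23, *Cd3d* at −0.07, *Cd3e* at −0.19, *Cd3g* at −0.30, *Lck* at −0.22, *Cd4* at −0.41 and *Cd8a* at −0.01.

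**Figure D1:**
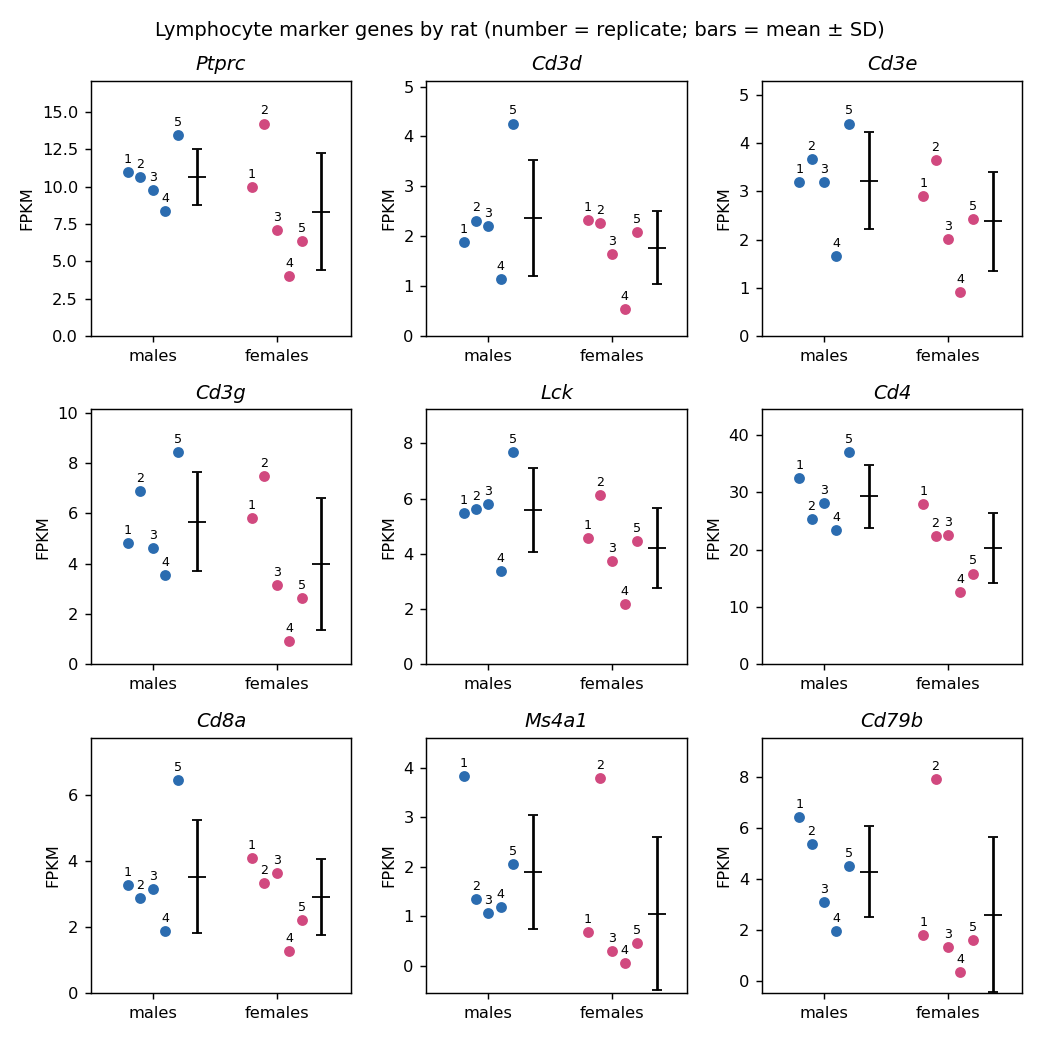
Levels of the 9 lymphocyte markers in FPKM (vertical axes, linear) in PCK renal cortex, 5 males and 5 females, with each point a rat, its number the replicate, and bars the mean ± SD of the 5 rats. Female 4 is the lowest point in every panel, and female 2 stands well above the other females for *Ms4a1* (3.80 FPKM) and *Cd79b* (7.94 FPKM).

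*Ptprc*, the marker shared by all leukocytes, was at 11.0, 10.6, 9.77, 8.396 and 13.5 FPKM in males 1 to 5. In females 1 to 5 it was at 9.997, 14.2, 7.10, 3.996 and 6.33 FPKM. The females held both the highest and the lowest rat, and the SD of their values was 3.93 FPKM against 1.87 FPKM in males. The means were 10.7 FPKM in males and 8.33 FPKM in females (n = 5 each, exact permutation test, p = 0.262), and limma put the log2 fold change at −0.46 (standard error 0.28, adjusted p = 0.475).

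*Cd3e*, the CD3 chain used most often to mark T cells, was at 3.20, 3.66, 3.19, 1.65 and 4.41 FPKM in males. Females had 2.90, 3.65, 2.02, 0.905 and 2.43 FPKM of *Cd3e*. Male 5 was highest and female 4 lowest, and the other 4 females lay within the range of the males. The mean was 3.22 ± 1.01 FPKM in males and 2.38 ± 1.02 FPKM in females (SD, n = 5 each, exact permutation test, p = 0.246), and limma put the log2 fold change at −0.48 (standard error 0.35, adjusted p = 0.558). *Cd3d* was at 1.89, 2.31, 2.21, 1.15 and 4.26 FPKM in males and at 2.31, 2.27, 1.64, 0.549 and 2.09 FPKM in females. Male 5 was the highest rat for *Cd3d*, and none of males 1 to 4 exceeded the highest female. *Cd3g* was at 4.83, 6.89, 4.61, 3.54 and 8.44 FPKM in males and at 5.80, 7.48, 3.17, 0.916 and 2.65 FPKM in females. Females 1 and 2 were among the 4 highest rats for *Cd3g*, and females 3, 4 and 5 were the 3 lowest. Neither *Cd3d* (log2 fold change −0.42, standard error 0.40, limma adjusted p = 0.681) nor *Cd3g* (−0.73, standard error 0.47, limma adjusted p = 0.506) differed beyond the spread. *Lck*, the kinase that acts on these chains, was at 5.46, 5.63, 5.82, 3.39 and 7.69 FPKM in males and at 4.57, 6.13, 3.74, 2.18 and 4.45 FPKM in females. Its order of rats was close to that of *Cd3e*, with male 5 highest and female 4 lowest. *Lck* had a mean of 5.60 ± 1.52 FPKM in males and 4.21 ± 1.43 FPKM in females (SD, n = 5 each, exact permutation test, p = 0.167, limma adjusted p = 0.484).

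Of the co-receptors, *Cd4* was the member with the lowest p in both tests. It was at 32.5, 25.4, 28.0, 23.4 and 37.0 FPKM in males and at 28.0, 22.4, 22.5, 12.6 and 15.8 FPKM in females. Female 1 lay within the range of the males, and the other 4 females lay below all males. The mean of *Cd4* was 29.3 ± 5.51 FPKM in males and 20.3 ± 6.09 FPKM in females (SD, n = 5 each), a difference with an exact permutation p of 0.0397. In limma the log2 fold change of −0.56 (standard error 0.21) had an adjusted p of 0.213 over all genes. The exact p rose above 0.05, to at most 0.0873, when male 1, 3 or 5 or female 2, 3, 4 or 5 was left out. With scaling to reads outside the mitochondrial genome the exact p was 0.0635, with a difference of −9.36 FPKM against −9.01 FPKM. *Cd8a*, the co-receptor of cytotoxic T cells, was at 3.27, 2.87, 3.15, 1.89 and 6.44 FPKM in males. In females *Cd8a* was at 4.08, 3.33, 3.63, 1.26 and 2.22 FPKM. Male 5 was the highest rat, and females 1, 2 and 3 exceeded males 1 to 4. Its means, 3.52 ± 1.72 FPKM in males and 2.90 ± 1.15 FPKM in females, had the highest exact p of the members (0.579, exact permutation test), and without male 5 the mean of females was above that of males by 0.109 FPKM. The ratio of *Cd4* to *Cd8a* ran from 5.74 in male 5 to 12.4 in male 4 among males, and from 6.20 in female 3 to 9.96 in female 4 among females, so the sexes overlapped.

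The B cell genes had the largest log2 fold changes and the widest spread of the 9. *Ms4a1* was at 3.84, 1.35, 1.07, 1.18 and 2.06 FPKM in males and at 0.677, 3.80, 0.289, 0.0459 and 0.459 FPKM in females. Female 2 was level with male 1, and the other 4 females lay below all 5 males. Female 4 had 1 read of *Ms4a1*, where 3 reads would be 0.138 FPKM. *Cd79b* was at 6.44, 5.39, 3.10, 1.97 and 4.53 FPKM in males and at 1.83, 7.94, 1.32, 0.374 and 1.61 FPKM in females. The pattern was that of *Ms4a1*, with female 2 the highest rat of all and the other 4 females below all males. Over all 10 rats the log2 fold change was −1.52 for *Ms4a1* (standard error 0.73, limma adjusted p = 0.345, exact permutation p = 0.357), and it was −0.66 with a pseudocount of 1 and −1.88 with 0.01. For *Cd79b* it was −1.19 (standard error 0.62, limma adjusted p = 0.390, exact permutation p = 0.310).

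The values of the B cell genes depended on single females. Without female 4 the log2 fold change was −0.99 for *Ms4a1* and −0.71 for *Cd79b*. When female 2 was left out, *Ms4a1* was at 0.368 ± 0.267 FPKM in females (SD, n = 4) against 1.90 FPKM in males, a log2 fold change of −2.18 (exact permutation p = 0.0238, limma adjusted p = 0.0547). *Cd79b* was then at 1.28 ± 0.640 FPKM in females (SD, n = 4) against 4.29 FPKM in males, a log2 fold change of −1.73 (exact permutation p = 0.0159, limma adjusted p = 0.0770). The ranges of both B cell genes then did not overlap, as for 8.68% of all genes in the same 9 libraries. Female 2 was singled out by its values of these same genes, and the other 4 females already lay below all males. The lack of overlap thus followed from the choice of rat. For both genes the exact and limma p-values without female 2 cannot show a difference between the sexes. Without female 2 the exact permutation p was at most 0.05 for 3 of 9 members, against 17.8% of all genes. The third was *Ptprc*, with an exact permutation p of 0.0397 (limma adjusted p = 0.148), while the exact p of *Cd4* became 0.0556. By limma 0 of 9 members passed the adjusted p without female 2, against 3.08% of all genes, and 5 of 9 had an unadjusted p under 0.05, against 19.8%. The mitochondrial share of this library was the highest of the 10, and nothing in the labels sets it apart. Its part in these differences was not tested.

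**Figure D2:**
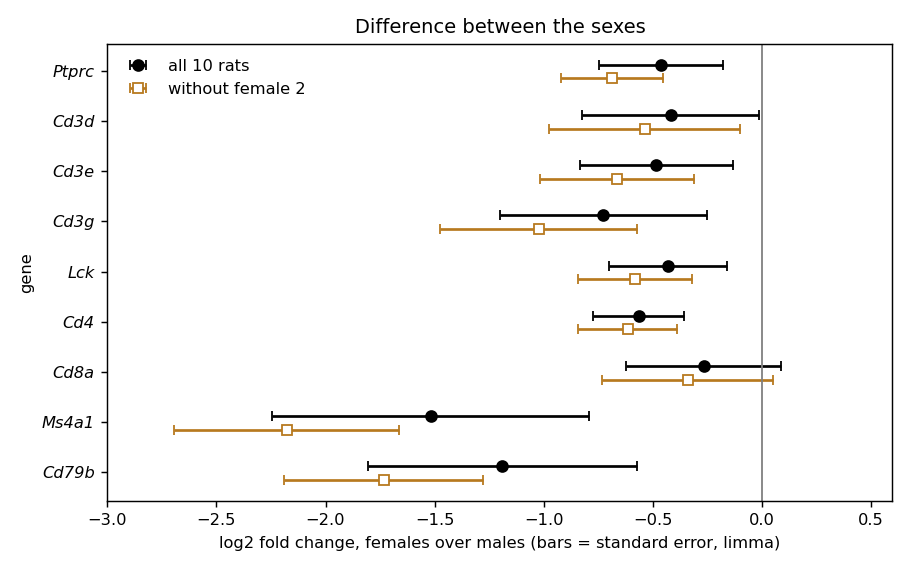
Log2 fold change of each lymphocyte marker, females over males on the log2(FPKM + 0.1) scale (horizontal axis), with bars for the limma standard error. Filled circles are all 10 rats and open squares are the 9 rats without female 2, where *Ms4a1* moved from −1.52 to −2.18 and *Cd79b* from −1.19 to −1.73. Female 2 is the rat singled out by its own values of these genes.

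Single rats held the same end of the range for many of the markers. Female 4 was the lowest library for 9 of the 9 markers, while it was the lowest for 16.9% of all genes tested. Male 5 was the highest for 6 of the 9 (*Cd3d*, *Cd3e*, *Cd3g*, *Lck*, *Cd4* and *Cd8a*), against 14.3% of all genes, female 2 for *Ptprc* and *Cd79b*, and male 1 for *Ms4a1*. Male 5 was 4.87-fold above female 4 for *Cd3e* (95% counting interval 3.09 to 7.96) and 9.21-fold for *Cd3g* (4.75 to 19.96). For *Cd4* the same ratio was 2.94 (2.61 to 3.32) and for *Lck* 3.53 (2.73 to 4.60). *Cd79b* was 21.2-fold higher in female 2 than in female 4 (10.5 to 50.1), and *Ms4a1* was 83.7-fold higher in male 1 than in female 4 (14.6 to 3349), a ratio that rests on the 1 read of female 4. The coefficient of variation over the 10 rats was lowest for *Cd4* (29.3%) and highest for *Ms4a1* (92.3%) and *Cd79b* (72.5%). Female 4 had 19556707 reads on genes, within the range of the other libraries.

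**Figure D3:**
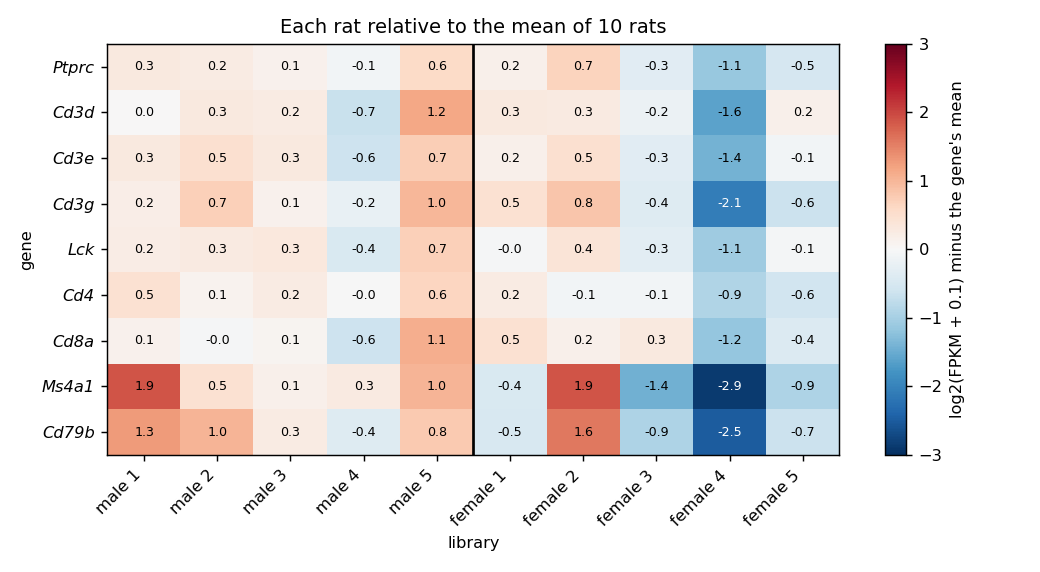
Log2(FPKM + 0.1) of each lymphocyte marker (rows) in each rat (columns, males left of the line), minus the gene's mean over the 10 rats, in red where above the mean and blue where below. The column of female 4 is blue throughout, from −0.9 for *Cd4* to −2.9 for *Ms4a1*, and male 5 is above the mean for all 9 genes.

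Levels of other cell types moved with these rats. The summed FPKM of 15 macrophage genes was highest in male 5 (2353 FPKM) and lowest in female 4 (895 FPKM), and 13 of the 15 had their lowest library in female 4. *Lyz2* and *Cd74* held most of the sum, at 1010 and 954 FPKM in male 5 and at 294 and 486 FPKM in female 4. The 6 proximal tubule genes summed to the opposite ends, highest in female 4 (2891 FPKM) and lowest in female 2 (1419 FPKM) and male 5 (1667 FPKM). *Slc34a1* made up 1658 of the 2891 FPKM, and 2 of the 6 genes had their highest library in female 4. The 8 endothelium and fibroblast genes had their lowest sum in female 4 (154 FPKM) and their highest in males 1 (389 FPKM) and 5 (385 FPKM). Red cell genes summed to 177 FPKM in female 4, the highest of the 10 rats, with *Hbb* at 129 FPKM and *Slc4a1* at 43.0. *Slc4a1* did not follow *Hbb* in every rat. In female 3 *Hbb* was lowest, at 11.3 FPKM, with *Slc4a1* at 38.7, and in male 4 they were at 123 and 22.6. *Hbb-b1* was highest in male 5. How far the sum follows blood left in the tissue was not tested. The part of the cell makeup of each piece of cortex in the marker levels was not tested.

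The markers varied together from rat to rat. Over the 36 pairs of members, Spearman's rho ran from 0.31 for *Cd8a* and *Cd79b* to 0.96 for *Cd79b* and *Ms4a1*, with a median of 0.70. Pearson's r of log2(FPKM + 0.1) was then taken for 12 pairs with permutation p-values adjusted over the 12, and all 12 had an adjusted p of at most 0.05. *Cd3e* and *Lck* were the closest pair, with r = 0.99 (permutation p = 1e-05, the smallest that 100000 permutations can give, adjusted p = 0.00012) and rho = 0.94 (permutation p = 0.00017). Without male 4 and female 4, the rats farthest from the median of *Cd3e*, r was 0.96, and it was 0.98 in males alone and 0.99 in females alone. *Cd3e* had r = 0.95 with *Cd3d* (permutation p = 7e-05, adjusted p = 0.000192, rho = 0.83 with permutation p = 0.00466) and r = 0.94 with *Cd3g* (permutation p = 0.00031, adjusted p = 0.000531, rho = 0.90 with permutation p = 0.00088).

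For the B cell pair *Cd79b* and *Ms4a1*, r was 0.96 (permutation p = 4e-05, adjusted p = 0.000192) and rho was 0.96 (permutation p = 8e-05). Without females 2 and 4 it was 0.91 (permutation p = 0.00114), so the relation did not rest on these rats. Between the T cell marker *Cd3e* and the B cell marker *Ms4a1* r was 0.80 (permutation p = 0.00532, adjusted p = 0.00638, rho = 0.77 with permutation p = 0.0127), 0.34 in males alone and 0.91 in females alone. Whether this relation differed between the sexes was not tested. It did not pass without female 4 (r = 0.59, permutation, adjusted p = 0.112) or on linear FPKM (r = 0.61, adjusted p = 0.0630). The ratio of *Cd3e* to *Cd79b* was 0.497 to 1.03 in males, 0.460 in female 2 and 1.51 to 2.42 in the other 4 females. *Cd3e* and *Ptprc* had r = 0.91 (permutation p = 0.00068, adjusted p = 0.00102, rho = 0.88 with permutation p = 0.0016), and 0.89 without male 4 and female 4. For *Cd3e* and the co-receptors r and rho differed more. With *Cd8a* r was 0.83 (permutation p = 0.00254, adjusted p = 0.00339) and rho 0.58 (permutation p = 0.0892), and with *Cd4* r was 0.79 (permutation p = 0.00816, adjusted p = 0.00856) and rho 0.64 (permutation p = 0.0540). Without male 4 and female 4 they were 0.48 (permutation p = 0.221) and 0.63 (permutation p = 0.0935), and no longer passed with the 8 rats left. Without male 4 alone they were 0.81 and 0.83 and still passed, while without female 4 alone they were 0.67 (permutation, adjusted p = 0.0597) and 0.55 (adjusted p = 0.126), so these calls rested on female 4.

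**Figure D4:**
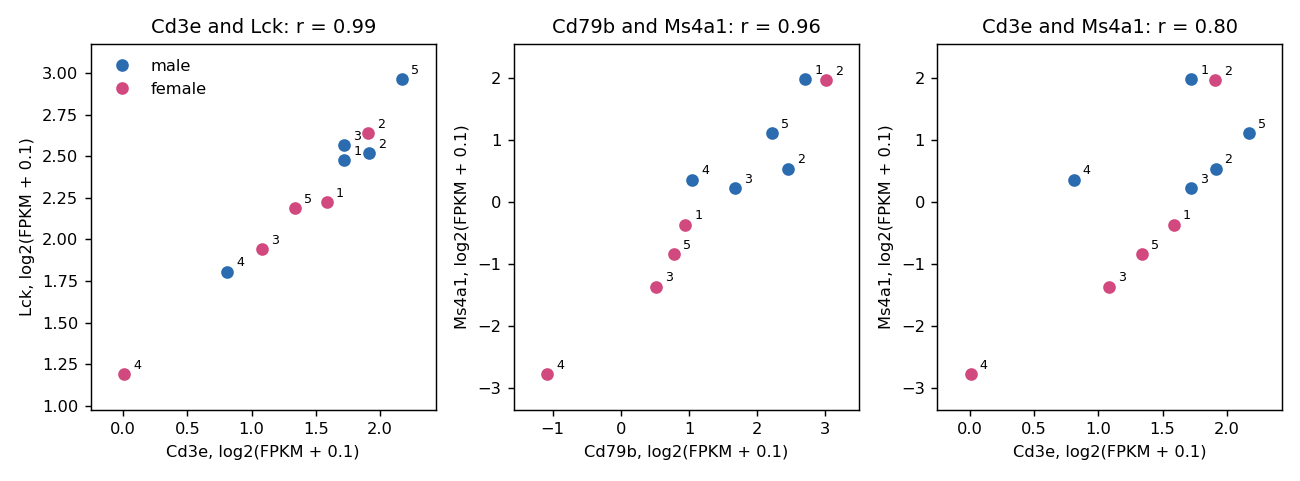
Pairs of lymphocyte markers across the 10 rats, both axes in log2(FPKM + 0.1), with each point a rat, its number the replicate and its colour the sex. *Cd3e* and *Lck* lie close to a line (r = 0.99), as do *Cd79b* and *Ms4a1* (r = 0.96), while *Cd3e* and *Ms4a1* scatter more (r = 0.80), with male 4 lying apart.

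*Cd4* and *Ptprc* are not restricted to lymphocytes, and both moved with macrophage genes. *Csf1r*, the receptor for the macrophage growth factor CSF1, had r = 0.95 with *Cd4* (permutation p = 7e-05, adjusted p = 0.000192, rho = 0.78 with permutation p = 0.0106) and r = 0.92 with *Ptprc* (permutation p = 0.00027, adjusted p = 0.000531, rho = 0.85 with permutation p = 0.00302). Without male 5 and female 4 these were 0.86 and 0.80. *Cd68*, a lysosomal protein of macrophages, had r = 0.79 with *Cd4* (permutation p = 0.00856, adjusted p = 0.00856, rho = 0.55 with permutation p = 0.104) and r = 0.95 with *Ptprc* (permutation p = 8e-05, adjusted p = 0.000192, rho = 0.84 with permutation p = 0.00385). Without females 2 and 4 they were 0.92 and 0.84. *Cd68* and *Cd4* did not pass without female 4 alone (r = 0.56, permutation, adjusted p = 0.124) or on linear FPKM (r = 0.62, adjusted p = 0.0558). *Cd4* was 6.13 to 14.2 times the level of *Cd3e* in a rat. How much of the *Cd4* and *Ptprc* signal came from T cells was not tested.

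Among 13354 genes whose mean reached 1 FPKM, those whose pattern over the 10 rats was most like the markers were named by Pearson's r, as a description. For the mean log2 profile of *Cd3d*, *Cd3e*, *Cd3g* and *Lck* they were *Lcp2*, which encodes the adaptor SLP-76 of T cell receptor signalling (r = 0.97), *Hmha1*, *Tbc1d10c*, *Laptm5* and *Dapp1* (r = 0.96 for the last). *Lcp2* ranged from 1.17 to 4.80 FPKM. For *Ms4a1* and *Cd79b* they included *Parp8* (r = 0.98), *Klf5*, *Rgs16* and *Prelp* (r = 0.96). For *Cd4* they were *Gna14* (r = 0.98), *Mpeg1*, which encodes the pore-forming perforin-2 of macrophages, *Cfd*, *Arpc1b* and *Unc93b1*. *Cd8a* was followed most closely by *Prr5l* (r = 0.96), *Gzmm*, a granzyme of cytotoxic lymphocytes, *Psmb9*, a subunit of the immunoproteasome, *Pdp1* and *Slamf9*. For *Ptprc* the genes were *Lat2* (r = 0.99), *Lcp2*, *Lsp1*, *Lcp1* and *Sash3*.

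Other genes of the same cells were read from lists, and none of their lymphocyte genes passed the adjusted p in limma. Without female 2, 3 of the 102 tested genes of the 6 lymphocyte lists passed (2.94%, close to the 3.08% of all genes), all lower in females. They were *Spib*, a transcription factor of B cells (log2 fold change −1.63, limma adjusted p = 0.0176), *Cxcr4*, the receptor for CXCL12 (−1.03, adjusted p = 0.0465), and *Cst7* of cytotoxic cells (−0.79, adjusted p = 0.0439). *Spib* and *Cxcr4* were named here after their values were seen. Of 24 tested T cell receptor and co-receptor genes, 0 passed, 2 had an unadjusted p under 0.05, 22 had a lower mean log2 level in females (median log2 fold change −0.36), and 19 were lowest in female 4. The best expressed of them were *Fyn*, a kinase related to LCK (5.89 ± 0.532 FPKM in males and 6.67 ± 0.995 in females), *Cd7* (5.49 ± 1.07 and 4.001 ± 1.48) and *Il2rg*, the common γ chain of cytokine receptors (6.45 ± 0.934 and 6.21 ± 3.56). Of 22 tested B cell genes, 0 passed, 1 had an unadjusted p under 0.05, 21 had a lower mean log2 level in females (median −0.50), 18 were lowest in female 4 and 13 were highest in female 2, the highest library for 18.8% of all genes. *Cd37*, a tetraspanin, was at 15.5 ± 3.96 FPKM in males and 12.0 ± 4.57 in females, *Ly86* was at 7.35 ± 1.70 and 5.91 ± 2.71, and *Blnk*, the adaptor below the B cell receptor, was at 17.5 ± 1.86 and 18.5 ± 2.19 FPKM.

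Genes of T cell subsets and states, among which *Pdcd1* and *Ifng* had at most 3 reads in every library, passed for 0 of 16 tested genes (1 unadjusted, 12 lower in females, median −0.33). Their best expressed genes were *S1pr1*, *Gata3* and *Tcf7*, and *Gata3*, at 9.60 ± 1.23 FPKM in males and 13.0 ± 4.60 in females, had an exact permutation p of 0.0476 and a limma adjusted p of 0.360. Of 13 NK and cytotoxic genes 0 passed (1 unadjusted, 11 lower, median −0.20), with *Ccl5*, *Cst7* and *Ctsw* the best expressed. *Ccl5*, a chemokine of activated T and NK cells, was at 10.6 ± 6.71 FPKM in males and 11.5 ± 2.97 in females. The plasma cell list had 0 of 9 (4 unadjusted, 7 lower, median −0.23). Its immunoglobulin genes differed widely between rats, with *Igkc*, the κ light chain, at 134, 21.3, 22.3, 14.4 and 349 FPKM in males and at 14.9, 51.4, 8.99, 4.11 and 9.37 FPKM in females. *Ighm*, the μ heavy chain, was highest in male 5 (58.4 FPKM) and lowest in female 4 (2.24 FPKM), and *Xbp1*, which tubular cells also express, was at 79.3 ± 3.28 FPKM in males and 96.0 ± 11.6 in females, without overlap (exact permutation p = 0.00794, limma adjusted p = 0.157).

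Among genes of lymphocyte homing and survival 0 of 18 passed (3 unadjusted, 14 lower, median −0.21). *Ccl21*, the chemokine that draws T cells into lymphoid tissue, was at 77.0, 47.8, 43.3, 15.9 and 69.8 FPKM in males and at 40.4, 177, 31.6, 14.9 and 29.2 FPKM in females, highest in female 2 and lowest in female 4. *Cxcl12* was at 31.2 ± 3.05 FPKM in males and 25.04 ± 3.65 in females (exact permutation p = 0.0317, limma adjusted p = 0.180), and *Ltbr* was at 41.2 ± 2.83 and 42.2 ± 2.92 FPKM. The pan-leukocyte genes, *Coro1a*, *Cd48* and *Arhgdib* the best expressed among them, had 0 of 16 (3 unadjusted, 15 lower, median −0.47), and 13 were lowest in female 4. *Coro1a* was at 39.6 ± 10.7 FPKM in males and 26.8 ± 7.21 in females (limma adjusted p = 0.276).

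Lists of other cells gave the setting. Of 15 macrophage genes 0 passed (3 unadjusted, 13 lower, median −0.44), with *Lyz2* at 618 ± 226 and 454 ± 138 FPKM, *Cd74* at 661 ± 166 and 674 ± 225 FPKM and *C1qc* at 59.3 ± 19.4 and 47.2 ± 20.47 FPKM. Of 4 tested neutrophil genes 0 passed (1 unadjusted, 3 lower), and all 7 genes of the list summed to levels from 1.36 to 14.7 FPKM among males and from 1.17 to 4.74 FPKM among females. *Mpo*, which encodes the granule enzyme of neutrophils, had at most 3 reads in every library. Red cell genes had 0 of 4 (1 unadjusted, 1 lower). The 4 list genes that passed belong to kidney, vessel and matrix cells. They were 1 of 6 proximal tubule genes, 1 of 5 genes of the thick limb and collecting duct, and 2 of 8 genes of endothelium and fibroblasts. Over all genes tested 2.4% passed and 15.7% had an unadjusted p under 0.05. By mean log2 level 3 of the proximal tubule genes were higher in females and 3 lower. Of endothelium and fibroblast genes 3 were higher and 5 lower, and all 5 of the thick limb and collecting duct were higher. *Cubn* of the proximal tubule (50.0 ± 12.2 FPKM in males and 81.0 ± 11.9 in females, limma adjusted p = 0.0467), *Atp6v0d2* of intercalated cells (32.1 ± 3.31 and 48.3 ± 8.65, limma adjusted p = 0.0351) and *Vwf* of endothelium (3.93 ± 0.604 and 9.38 ± 3.05, limma adjusted p = 0.0118) rose in females. *Col3a1*, a fibrillar collagen of fibroblasts, fell (81.8 ± 13.1 and 39.5 ± 14.9 FPKM, limma adjusted p = 0.0477). Of these calls, that of *Vwf* held in each of the 10 fits that left out a rat, while *Cubn* held in 2 of them, *Col3a1* in 3 and *Atp6v0d2* in 3. Over all 18 alternative fits *Vwf* held in 18, *Atp6v0d2* in 9, *Cubn* in 8 and *Col3a1* in 8. With the replicate block only *Vwf* held.

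**Figure D5:**
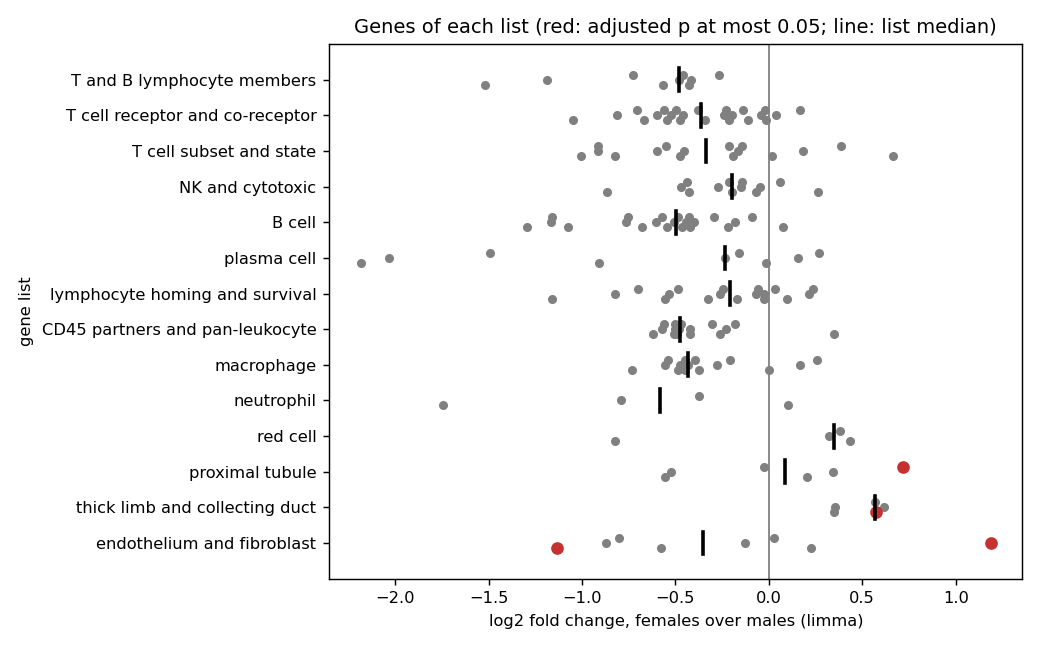
Log2 fold change, females over males on the log2(FPKM + 0.1) scale (horizontal axis), of each tested gene of the 9 lymphocyte markers and of 13 lists of related and other cell types, with black lines at the list medians and red for a limma adjusted p of at most 0.05. The lymphocyte lists lie mostly left of 0 with no red point, and the 4 red points are *Cubn*, *Atp6v0d2*, *Vwf* and *Col3a1*.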

How the data were processed

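The data are 10 libraries of renal cortex RNA, each from a different PCK rat (5 males, 5 females), grouped by the sex in the labels. Poly-A libraries were sequenced by the study's provider and mapped with HISAT2 to Ensembl Rnor_6.0, and the authors deposited FPKM for 32545 genes. The submitters' processing notes also name fastp, StringTie 1.3.3b, featureCounts 1.5.0-p3 and HISAT2 2.0.5. Whether counting used strand is not given in the sources used here, so antisense reads could enter a gene. The 9 members overlap no other gene of the table. The authors tested counts with DESeq2, and those counts were not used here.

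The members and gene lists were chosen with earlier results of these data known. The files hold FPKM and not counts, so limma 3.58.1 (lmFit, eBayes with trend, R 4.3.3) was fitted to log2(FPKM + 0.1) for the 17631 genes whose mean reached 0.1 FPKM, with Benjamini-Hochberg adjustment. Fold changes on this scale understate those of low genes. Whole reads were recovered from the FPKM for 100% of values (within 0.01 reads), which gave 13912569 to 20285911 reads on genes per library. Exact permutation tests (252 splits), exact sign-flip tests (1024) and permutation p-values of correlations (100000) were two-sided and run in Python 3.11.15 with scipy 1.17.1. The p-values measure the spread between these rats, littermates from 2 litters whose assignment was not used here. Scripts were tested on simulated data. Even the closest pair of libraries had a chi-square of 10.2 for each degree of freedom, and all were counted as separate samples. Genes named in the text are the members, the 3 best expressed genes of each list, list genes past the adjusted p, and the 5 genes most like each profile. *Csf1r* and *Cd68* come from the pairs set for the correlations, and *Pdcd1*, *Ifng*, *Mpo*, *Spib* and *Cxcr4* were named after their values were seen. Alternatives were another pseudocount (1 or 0.01), no filter or a mean of 1 FPKM, median-ratio scaling, scaling to reads outside the mitochondrial genome, limma-voom, a replicate block, linear FPKM and leaving out each rat. List symbols without a match included *Klrb1a*, *Fasl*, *Jchain*, *Hba-a1* and *Hba-a2*. Some genes that these rules name are not reported here. Promoter windows came from RefSeq on GRCr8.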

Additional observations from a re-analysis of the deposited data

Results flagged for a closer look

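In a search for single rats far from the other 4 of their sex, 15 of 102 groups of 5 had such a rat. The cut-off is met about 1 in 20 times by independent, normally distributed values. These were linear FPKM of genes that move together across rats, so 15 of 102 cannot be set against that rate. The search covered the 9 markers and the list genes named by the rule. Both B cell markers were among them, each for female 2. *Ms4a1* was at 3.80 FPKM in female 2 with the next female at 0.677 FPKM, and *Cd79b* was at 7.94 FPKM with the next at 1.83 FPKM. No T cell marker, *Cd4*, *Cd8a* or *Ptprc* had such a rat in either sex. The antibody chains *Igkc* (51.4 FPKM) and *Ighm* (14.9 FPKM) stood apart in female 2 as well, as did *Ccl21* (177 FPKM), *Gata3* (21.1 FPKM), *Cst7* (8.84 FPKM) and *S100a9* (2.56 FPKM). *Gata3* is also expressed by the collecting duct. This library also had the highest mitochondrial share, 26.8%, and the part of that share in these levels was not tested.

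Male 5 stood above the other males for *Cd74* (954 FPKM), *Lyz2* (1010.3 FPKM), *Ccl5* (22.3 FPKM), *Ctsw* (8.96 FPKM) and *Umod* (1348 FPKM). Among males *Aqp2* was highest in male 1 (112 FPKM), and among females *Hbb-b1* was highest in female 4 (3.34 FPKM).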

How the results depend on the processing

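No member passed the adjusted p of limma under any alternative (median-ratio scaling, with a factor of 1.01 in every library, could change nothing), and the log2 fold change of all 9 was below 0 in females in each of them, with adjusted p no lower than 0.0547 (*Ms4a1* without female 2). By the exact test 1 member, *Cd4*, had a p of at most 0.05, and this count became 0 with scaling to reads outside the mitochondrial genome and 0 to 3 with a rat left out. With the replicate number as a block it was 0, since 5 pairs cannot go below 0.0625. The mean of *Cd8a* was higher in females, by 0.109 FPKM, without male 5 (range with a rat left out −1.03 to 0.109 FPKM). *Cd79b* was above *Cd8a* by 0.237 on linear FPKM, where the log2 difference was −0.19. Of the 12 relations, 10 passed on linear FPKM, and 8 without female 4, where *Cd3e* lost those with *Cd8a*, *Cd4* and *Ms4a1*, and *Cd68* that with *Cd4*.

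List genes past the adjusted p numbered 4, against 2 with no filter, 2 with scaling outside the mitochondrial genome, 1 with the replicate block, and 1 to 9 with a rat left out (9 without female 2). Over all genes 232 passed both thresholds, 137 with a pseudocount of 1 and 424 by the adjusted p alone. No pairing by replicate number was seen, as deviations of same-numbered males and females correlated between −0.10 and 0.07. How the rats were numbered cannot be told from this, and the block gave 176 genes. The causes of these shifts were not tested. *Ms4a1*, *Cd3d*, *Cd79b* and *Cd3g*, with at most 10 reads in female 4, are limited by depth there.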
